A study of Caenorhabditis elegans with 3 samples.

Results

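The genes described here encode antimicrobial peptides of the epidermis of the nematode Caenorhabditis elegans. They were chosen by name as nlp-26, nlp-27, nlp-28, nlp-29, nlp-30, nlp-31, nlp-33, nlp-34, cnc-2 and cnc-4, which makes 10 genes. The array's probe annotation paired 9 of them with 1 probe set each, out of 22625 probe sets on the array, and nlp-34 was not analysed here. Of the 9 genes, 8 passed the filter on low values, a mean over the arrays of at least the median of all probe sets (an intensity of 103.9). They are set beside all 8634 genes that passed it, each by its brightest probe set.

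The worms were young adult hermaphrodites of the wild-type strain N2, aged 3 days, from cultures synchronised as eggs and fed Escherichia coli OP50. The exposed groups were kept for 4 h or 24 h with multiwall carbon nanotubes, hollow fibres of rolled carbon sheets, at 1 mg/L in K-medium (0.032 M KCl and 0.051 M NaCl) at 20 °C, and the 0 h group received no nanotubes. Total RNA of whole worms was hybridised to 1 Affymetrix array per time, so the 3 arrays have no replicates and no value below has a replicate error or a test. The 3 arrays include none of unexposed worms at the later times, so exposure, time in the medium and age cannot be told apart. The sources used here do not give whether the worms had food in the medium.

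The epidermis of C. elegans secretes the cuticle and also defends the animal against fungi that pierce it. The nlp genes of this group encode small secreted peptides rich in glycine and aromatic residues, and the cnc genes encode the related caenacins. In epidermal cells nlp-29 and its neighbours are known to be induced by infection with the fungus Drechmeria coniospora, by wounding and by high osmolarity. The fungal and wound signals reach them through a p38 MAP kinase cascade with the adaptor TIR-1, the kinases NSY-1, SEK-1 and PMK-1, and the STAT-like factor STA-2. The caenacin gene cnc-2 is known to depend on the neuronal TGF-beta ligand DBL-1 and its epidermal receptors.

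Relative to the rest of each array, transcripts of the antimicrobial peptide genes were less abundant after 4 h with nanotubes than at 0 h in all 8 genes that passed the filter, and 4 of them were lower by at least 2-fold, as were 3.25% of all genes tested. At 24 h against 0 h all 8 again had a ratio below 0 and 4 were lower by at least 2-fold, as were 7.96% of all genes tested. The steepest difference was that of nlp-26, and the smallest at 24 h was that of cnc-4, which was back near its 0 h level. Scaled on added control transcripts instead, 1 of the 8 genes, nlp-26, was lower by at least 2-fold at each time, and several directions turned. Levels below are normalised intensities on a linear scale, and every ratio is on the log2 scale after adding 32 to the intensities, so that differences of dim genes are understated. In RNA of whole worms, a smaller epidermal share of the RNA and less of these transcripts within the epidermis cannot be told apart.

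Added controls of bacterial or phage sequence were not level between the arrays. Hybridisation controls, which are mixed with the labelled sample, had mean log2 ratios of -0.45 at 4 h and -0.66 at 24 h against 0 h. Poly-A controls, which are customarily added to the RNA before labelling, had -0.83 and -1.195, and the labels and notes used here do not state the amounts added. With the hybridisation controls held level, the median of all genes moved to 0.43 at 4 h and 0.61 at 24 h, and that of the peptide genes was -0.56 and -0.42. The gene nlp-28 at 4 h (log2 ratio 0.02) and cnc-4 at 24 h (0.43) were then above 0, and the other 7 genes were below 0 at each time, beside 12.3% of all genes at 4 h and 16.4% at 24 h. The 2-fold call of nlp-26 stood beside 1.41% and 3.68% of all genes lower. With the poly-A controls held level, the median of all genes was 0.79 at 4 h and 1.11 at 24 h, and that of the peptide genes was -0.19 and 0.090. At 4 h 7 of the 8 genes, all except nlp-28 (0.40), were below 0, beside 5.61% of all genes. At 24 h 4 were below 0, beside 6.79% of all genes, and nlp-28 (0.30), nlp-29 (0.32), nlp-31 (0.50) and cnc-4 (0.95) were above it. On this scale nlp-26 had -1.21 at 4 h and -1.26 at 24 h, beside 0.684% and 2.47% of all genes lower by 2-fold. Relative to the median of all genes, that of the peptide genes was -0.99 and -1.03 with the hybridisation controls and -0.99 and -1.02 with the poly-A controls. All ratios that follow are relative to the rest of each array unless a control scaling is named.

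The gene nlp-29 is the best known of the group and serves as a standard reporter of the epidermal immune response. It measured 1129 at 0 h, 583 at 4 h and 620.5 at 24 h. Both exposed arrays were low, at 51.6% of the 0 h intensity at 4 h and 55.0% at 24 h. The log2 ratios were -0.92 at 4 h and -0.83 at 24 h, both short of 2-fold.

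The gene nlp-31 encodes a peptide known to act against fungi in vitro. It measured 1034 at 0 h, 499.5 at 4 h and 646 at 24 h. The 4 h array was the lowest, 2.01-fold lower than 0 h, and 24 h lay between the others, with a log2 ratio of -0.65 against 0 h. Its neighbour nlp-30, of the same peptide family, measured 767 at 0 h, 364 at 4 h and 306 at 24 h. Both exposed arrays were past 2-fold, with log2 ratios of -1.01 at 4 h and -1.24 at 24 h.

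At the other end of the same run of genes lie nlp-28 and nlp-27, which encode peptides of this family too. The gene nlp-28 measured 2031 at 0 h, 1510.4 at 4 h and 1099 at 24 h. Its ratio at 4 h, -0.42, was the smallest of the 8 genes, and at 24 h it was -0.87. The gene nlp-27 measured 1837 at 0 h, 834 at 4 h and 701 at 24 h. It was past 2-fold at both times, with log2 ratios of -1.11 at 4 h and -1.35 at 24 h.

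The peptide genes nlp-26 and nlp-33 lie apart from that run. The gene nlp-26 measured 782 at 0 h, 179.8 at 4 h and 135 at 24 h. It was 3.84-fold lower at 4 h and 4.89-fold lower at 24 h than at 0 h (log2 ratios -1.94 and -2.29), and counted from the lowest of the 8634 genes these ratios ranked 37 and 146. The gene nlp-33 measured 3309.9 at 0 h, 1700.1 at 4 h and 1173 at 24 h. Its log2 ratio was -0.95 at 4 h and -1.47 at 24 h, so it was past 2-fold at 24 h.

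The caenacin gene cnc-4 measured 1218 at 0 h, 607 at 4 h and 1042 at 24 h. Only its 4 h array was low among these 3, with a log2 ratio of -0.97 at 4 h and -0.22 at 24 h. The caenacin gene cnc-2 was near the background on every array, at 93.8 at 0 h, 74.6 at 4 h and 58.7 at 24 h. It did not pass the filter. At 24 h it was under the brightest control for transcripts absent from worms, which reached 67.8, so it was at least 1.26-fold lower at 24 h than at 0 h. Its ratio at 4 h was -0.24.

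**Figure D1:**
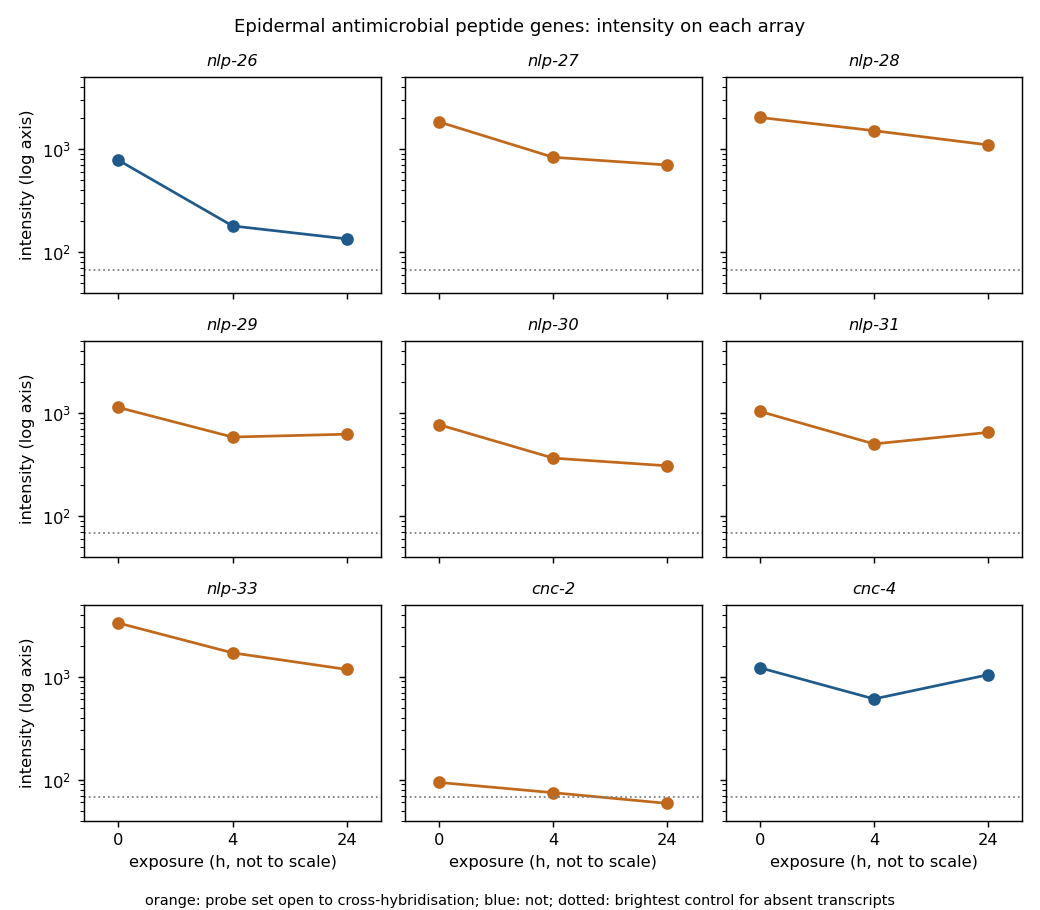
Normalised intensity (log axis) of the 9 probe sets of the group at 0 h, 4 h and 24 h, 1 array per time, with the brightest control for absent transcripts (67.8) as a dotted line. Relative to the other genes of each array, 4 h and 24 h lie below 0 h in each panel, cnc-4 is near its 0 h level at 24 h (1042 against 1218), and cnc-2 runs along the dotted line.

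Over the 8 genes, the median log2 ratio at 4 h against 0 h was -0.99, beside a median of 0.00 over the 8634 genes tested. The 4 genes past 2-fold were nlp-26, nlp-27, nlp-30 and nlp-31, the share of all genes being 3.25%. Just inside the 2-fold line was nlp-31, 2.01-fold lower, and just outside it were cnc-4 (-0.97), nlp-33 (-0.95) and nlp-29 (-0.92). The ratios were close to each other, with 6 of the 8 within 0.25 of the median, and nlp-26 and nlp-28 on either side of them. A ratio below 0 of any size, found in 8 of the 8 genes, was found in 40.2% of all genes. A ratio of exactly 0 was found in 1271 of the 8634 genes and in 0 of the 8, which lowers that share. In rank, 7 of the 8 genes, all except nlp-28, were among the lowest 5% of genes. Among the 4647 genes with a mean intensity in the range of the 8, the share lower by at least 2-fold was 3.59%.

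The precision of a single ratio can be read only from genes measured by more than 1 probe set, which none of the 9 genes was. Over 1830 such genes, the spread of a ratio between probe sets of a gene on the same arrays was taken as a root mean square. It was 0.24 at 4 h against 0 h and 0.47 at 24 h against 0 h. The brighter probe set of a gene had the lower ratio, by a mean of 0.17 at 4 h and 0.35 at 24 h. Each gene stands here by its brightest probe set, which is no choice for the 9 genes but is one for some of the genes they are set beside. The spread includes this mean offset between brighter and dimmer probe sets, and it leaves out differences between worms, cultures and hybridisations. At 4 h, 7 of the 8 genes lay below 0 by more than double that spread, and at 24 h 4 did. With the offset taken out the spread would be smaller, so these counts depend on how it is taken.

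At 24 h against 0 h the median of the 8 genes was -1.05, beside 0.00 over all genes tested. The 4 genes past 2-fold were nlp-26, nlp-33, nlp-27 and nlp-30, the share of all genes being 7.96%. The ratios were more spread than at 4 h, from -2.29 to -0.22, with an SD over the genes of 0.63, against 0.42 at 4 h. All genes were more spread at 24 h too, the lowest 5% lying under -1.32, against -0.81 at 4 h. Among the lowest 5% of all genes were 3 of the 8, namely nlp-26, nlp-33 and nlp-27. A ratio below 0 of any size was found in 8 of the 8 genes and in 48.5% of all genes, 578 of which had exactly 0. Among the genes of like brightness, 7.83% were lower by at least 2-fold.

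The comparisons of 4 h and of 24 h share the 0 h array, so a high value on that array would lower both ratios. The ratio of 24 h to 4 h does not use it. In that comparison 0 of the 8 genes passed 2-fold in either direction, beside 3.22% of all genes lower and 2.28% higher. The median of the 8 was -0.23, beside -0.005 over all genes. The ratio was below 0 for 5 of the 8 genes and for 50.6% of all genes tested, 950 of which had exactly 0. These 5 ran from nlp-33 (-0.52) through nlp-28 (-0.45), nlp-26 (-0.35) and nlp-27 (-0.24) to nlp-30 (-0.23). It was above 0 for nlp-29 (0.09), nlp-31 (0.35) and cnc-4 (0.75). With the poly-A controls held level, nlp-27 and nlp-30 were above 0 too, and cnc-4 (1.12) was higher by at least 2-fold, as were 6.11% of all genes. With cnc-4 at 607 at 4 h and 1042 at 24 h, 95.8% of all genes had a lower 24 h to 4 h ratio than this gene.

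**Figure D2:**
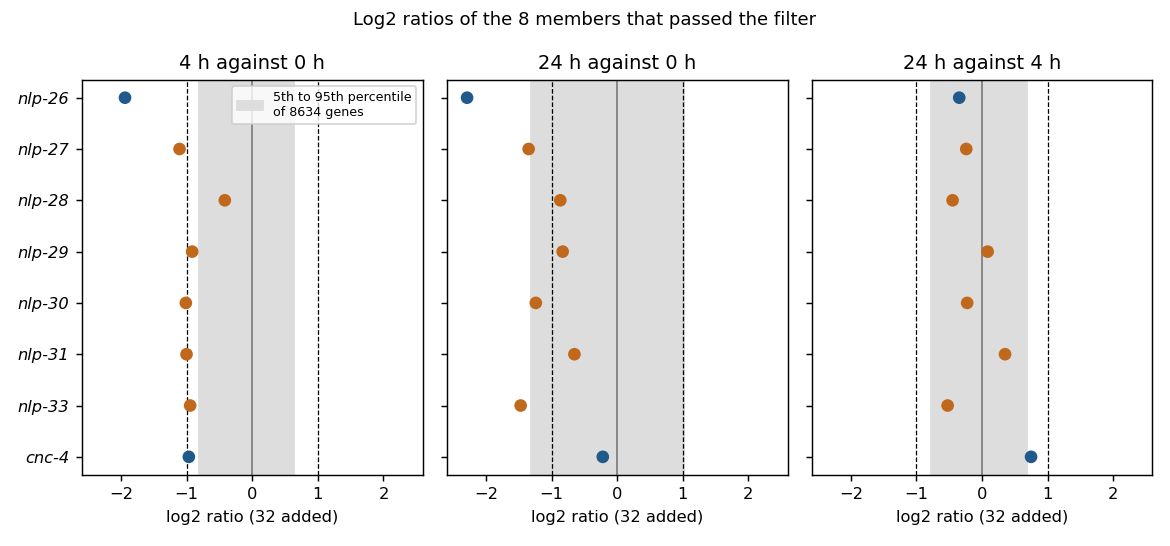
Log2 ratios (32 added) of the 8 genes that passed the filter in 3 comparisons, with the 5th to 95th percentile of the 8634 genes tested in grey, the median of all genes as a grey line and 2-fold as dashed lines. At 4 h against 0 h, 7 of the 8 lie left of the grey band, at 24 h against 0 h 3 do, and at 24 h against 4 h none does; scaled on the hybridisation controls nlp-28 at 4 h and cnc-4 at 24 h would lie above 0, and scaled on the poly-A controls nlp-28 at 4 h, nlp-28, nlp-29, nlp-31 and cnc-4 at 24 h, and nlp-27 and nlp-30 at 24 h against 4 h would too.

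Of the 9 probe sets, 7 are of the manufacturer's types that can hybridise with other transcripts, and those of nlp-26 and cnc-4 are not. The 5 measured genes of the nlp-27 to nlp-31 run encode similar peptides, so their probe sets may share signal and are not 5 independent measurements. The pair with probe sets of their own kept the direction seen in the others, with log2 ratios of -1.94 and -0.97 at 4 h. At 24 h these were -2.29 and -0.22, the second turning above 0 with either control scaling. None of the 9 probe sets had the same value on 2 arrays, whereas 27.8% of all probe sets had identical values at 4 h and 0 h.

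In the order of protein-coding genes of the WBcel235 assembly, nlp-34, nlp-31, nlp-30, nlp-29, nlp-28 and nlp-27 follow each other with 0 other genes between them. Of the genes on either side of this run, 10 each way, 5 passed the filter, and they went both ways. At 4 h against 0 h their log2 ratios ran from -1.55 to 1.48 (median -0.24), and at 24 h from -4.49 to 1.79 (median -0.52). The lowest of them at 24 h was the detoxification gene cyp-35A3, and the highest was dach-1, both named after their values were seen. The caenacin genes cnc-4 and cnc-2 enclose 1 other gene, cnc-3. It had a log2 ratio of -0.36 at 4 h and 0.20 at 24 h against 0 h, with intensities of 127 at 0 h, 92.0 at 4 h and 151 at 24 h. Like cnc-4 it was lowest at 4 h, and its 24 h to 4 h ratio was 0.56. The 8 measured genes around the caenacins had a median of 0.00 at 4 h and -0.09 at 24 h against 0 h.

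**Figure D3:**
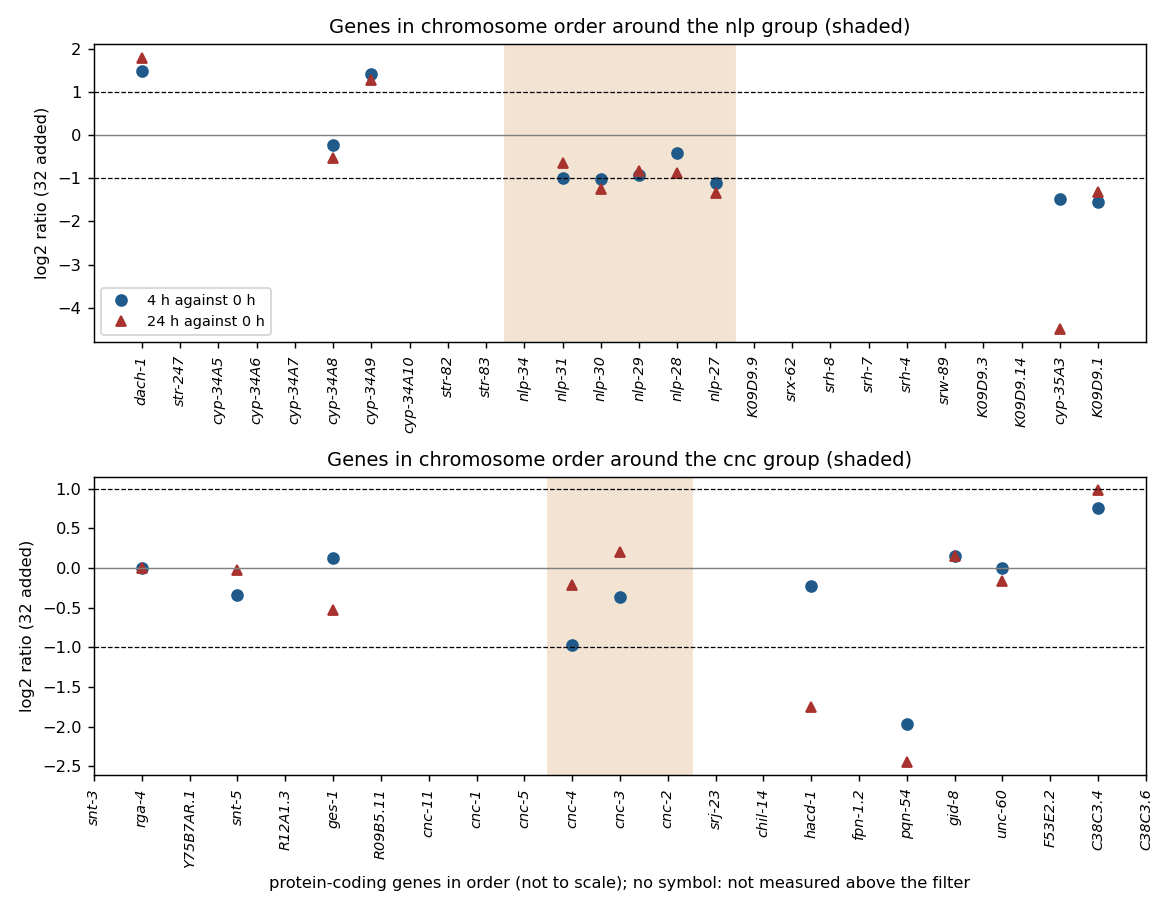
Log2 ratios (32 added) at 4 h (circles) and 24 h (triangles) against 0 h of protein-coding genes in chromosome order, with the run of nlp genes (upper plot) and the caenacin genes (lower plot) shaded and 2-fold as dashed lines. The 5 measured nlp genes lie between -0.42 and -1.35, relative to the other genes of the arrays, while the measured genes around them reach from -4.49 to 1.79; nlp-28 at 4 h lies above 0 with either control scaling, and nlp-28, nlp-29 and nlp-31 at 24 h with the poly-A controls.

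Most other peptide genes of these families did not pass the filter. Of 11 further nlp and cnc genes, 9 had a probe set and 3 passed the filter. The caenacin gene cnc-7 measured 189 at 0 h, 74.2 at 4 h and 77.7 at 24 h, with log2 ratios of -1.06 at 4 h and -1.01 at 24 h. It passed only through its 0 h value, so its ratios had to be low, and with either control scaling it did not pass. The gene cnc-8 measured 644 at 0 h, 754 at 4 h and 359.9 at 24 h, with ratios of 0.22 and -0.79.

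The fip and fipr genes encode short secreted peptides first described as induced by fungal infection. Of 36 listed, 13 had a probe set of their own and 6 passed the filter. Ratios were below 0 in 5 of the 6 at 4 h (median -0.41) and in 6 of 6 at 24 h (median -0.44), with the hybridisation controls in 3 at 4 h and 2 at 24 h, and with the poly-A controls in 1 at each time. None passed 2-fold at 4 h and 1 did at 24 h, fipr-21, at 2914 at 0 h, 1803 at 4 h and 1263 at 24 h (log2 ratio -1.19 at 24 h). With the hybridisation controls none was lower by 2-fold, nor was any with the poly-A controls, where 1 was higher at 24 h. The nearest to 2-fold at 4 h was fipr-2 (-0.87), and fipr-24 had -0.97 at 24 h.

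None of the genes listed for the epidermal p38 pathway that passed the filter reached a 2-fold difference from 0 h relative to the rest of each array. With the hybridisation controls 2 were higher at 24 h, beside 22% of all genes. With the poly-A controls 2 were higher at 4 h and 11 at 24 h, beside 22.5% and 60.8% of all genes. These shares, and 6.31% at 4 h with the hybridisation controls, apply to the counts of higher genes in all lists. Relative to the rest of each array, 148 of the 8634 genes were higher by at least 2-fold at 4 h and 459 at 24 h. Of 19 listed genes of the epidermal p38 pathway, 18 had a probe set of their own, nsy-1 not being among them. The genes sta-2, snf-12, nipi-4 and cebp-1 did not pass the filter. On every array sta-2 was under the control for absent transcripts, so it was not resolved. The filter was passed by 14 genes, and 0 of them were past 2-fold at either time, with medians of 0.01 and 0.00. The pseudokinase gene nipi-3, needed for nlp-29 induction after infection, had log2 ratios of -0.56 at 4 h and -0.49 at 24 h. The adaptor gene tir-1 had -0.46 and -0.15. The kinase gene pmk-1 measured 105 at 0 h, 135 at 4 h and 171 at 24 h, with ratios of 0.28 and 0.57. The gene of the receptor DCAR-1, which senses a tyrosine derivative, had a ratio of 0.34 at 4 h, and atf-7, for a transcription factor downstream of PMK-1, had -0.69 at 24 h. Transcript levels do not show the activity of these kinases, which depends on phosphorylation.

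Of 10 genes of the DBL-1 pathway, all of which passed the filter, 0 passed 2-fold at 4 h and 1 was higher at 24 h (medians 0.04 and 0.04), or 2 and 3 higher with the hybridisation controls and 4 and 6 with the poly-A controls. The 1 called relative to the rest of each array was sma-10, which encodes a membrane protein that promotes DBL-1 signalling, at 219 at 0 h, 451 at 4 h and 549 at 24 h (log2 ratios 0.95 and 1.21). The type I receptor gene sma-6 had 0.78 at 4 h and -0.15 at 24 h. The gene lon-1, known to be repressed by this pathway, had -0.57 and -0.80.

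Damage to the furrow collagens and high osmolarity are both known to raise nlp-29 transcription in C. elegans. Of 6 furrow collagen genes 5 were measured, and 1 was higher by at least 2-fold at 24 h, dpy-7, at 234 at 0 h, 268 at 4 h and 501 at 24 h (log2 ratio 1.00 at 24 h), or 2 with the poly-A controls. The lowest of the list was dpy-9, with -0.44 at 4 h and -0.47 at 24 h. Of 11 osmotic stress genes 8 passed the filter, and 1 was lower by at least 2-fold at 4 h, gpdh-1, for the glycerol synthesis enzyme induced by high osmolarity, though none was with either control scaling. With these, 2 of the 8 were higher at 24 h on the hybridisation controls, and 1 at 4 h and 6 at 24 h on the poly-A controls. Relative to the rest of each array the list medians were -0.24 at 4 h and -0.06 at 24 h. Ratios were below 0 in 5 of the 8 at 4 h and in 4 at 24 h. The highest were tps-1 (0.47) at 4 h, and osm-8 (0.51) and ptr-23 (0.49) at 24 h. The gene gpdh-1 measured 402 at 0 h, 155 at 4 h and 185 at 24 h, with a log2 ratio of -1.21 at 4 h, and it was just short of 2-fold lower at 24 h. The inositol transporter gene hmit-1.1, also known as osmotically induced, did not pass the filter and was named after its values were seen. It measured 178 at 0 h and under the control for absent transcripts at both later times, at 33.8 and 46.2, so it was at least 2.10-fold lower at each.

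Epidermal transcripts were present on every array. Of 15 epidermis marker genes 12 passed the filter, and their medians were 0.01 at 4 h and -0.07 at 24 h against 0 h, with 2 lower and 0 higher at 4 h and 1 lower and 1 higher at 24 h. With the hybridisation controls 1 was lower and 1 higher at 4 h and 1 lower and 3 higher at 24 h, and with the poly-A controls 1 lower and 3 higher at 4 h and 0 lower and 7 higher at 24 h. The transcription factor gene lin-26, which specifies epidermal fate, measured 3298 at 0 h, 3335 at 4 h and 3298 at 24 h. The adult collagen gene col-19 measured 5392, 6018 and 4064 at these times. The values of lin-26 at 0 h and 24 h were identical, a tie also found for many other probe sets. The cause of such ties was not tested, so the tie of lin-26 is no measure of a steady level. Summed over the 14 epidermis markers with a probe set, the intensity came to 55499 at 0 h, 51955 at 4 h and 41764 at 24 h, with the collagen gene dpy-13 at 22732, 19407 and 11409. Markers on the lower side were grd-10 (-1.84 at 4 h) and the adult collagen gene bli-1. The latter measured 244 at 0 h, 92.4 at 4 h and, under the control for absent transcripts, 55.5 at 24 h (at least 2.77-fold lower). Like cnc-7, bli-1 passed the filter only through its 0 h value, so its ratios had to be low. It was the 1 epidermis marker called lower at 24 h relative to the rest of the array. On the higher side was the nuclear receptor gene nhr-25 (0.98 at 4 h and 1.32 at 24 h). The genes lin-26 and col-19 were named after their values were seen.

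Markers of other cell types moved with the same arrays. Of 8 sperm markers 5 passed the filter, with a median of -0.55 at 4 h and -2.42 at 24 h. At 4 h 1 of them was lower by at least 2-fold, and at 24 h 5 were. The 7 sperm markers with a probe set summed to 3793 at 0 h, 2298 at 4 h and 689 at 24 h. Of 10 neuron markers 9 passed, with medians of 0.10 and 0.64, and 2 were higher by at least 2-fold at 24 h. The 11 intestine markers had medians of 0.13 and 0.15, with 2 lower at each time and 1 higher at 24 h. The 7 body wall muscle markers that passed, of 8, had medians of -0.31 and -0.14, with 1 lower at 4 h. With the hybridisation controls, 1 neuron marker was higher by 2-fold at 4 h and 6 were at 24 h, 3 intestine markers were higher at 24 h, 1 muscle marker was higher at 24 h and none lower at 4 h, and 0 sperm markers were lower at 4 h and 4 at 24 h. With the poly-A controls, 4 neuron markers were higher at 4 h and 9 at 24 h, 4 and 8 intestine markers were higher, 4 muscle markers were higher at 24 h, and 3 sperm markers were lower at 24 h, with their median above 0 at 4 h. In the intestine list act-5 (-1.96) and pept-1 (-2.22) were lower at 4 h, relative to the rest of the array. The ratios of 9 of the 11 markers were above 0 at 4 h, and spp-1 (1.22) was higher at 24 h. With the hybridisation controls 2 intestine markers were lower at 4 h and 1 at 24 h, and with the poly-A controls 2 and 0. The ratio of 5' to 3' signal, a measure of RNA length and labelling, was higher on the exposed arrays for 4 of 4 control transcripts, and for GAPDH it reached 0.382 at 0 h, 0.451 at 4 h and 0.579 at 24 h. The part of the cell type markers and of RNA quality in the ratios of the peptide genes was not tested.

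**Figure D4:**
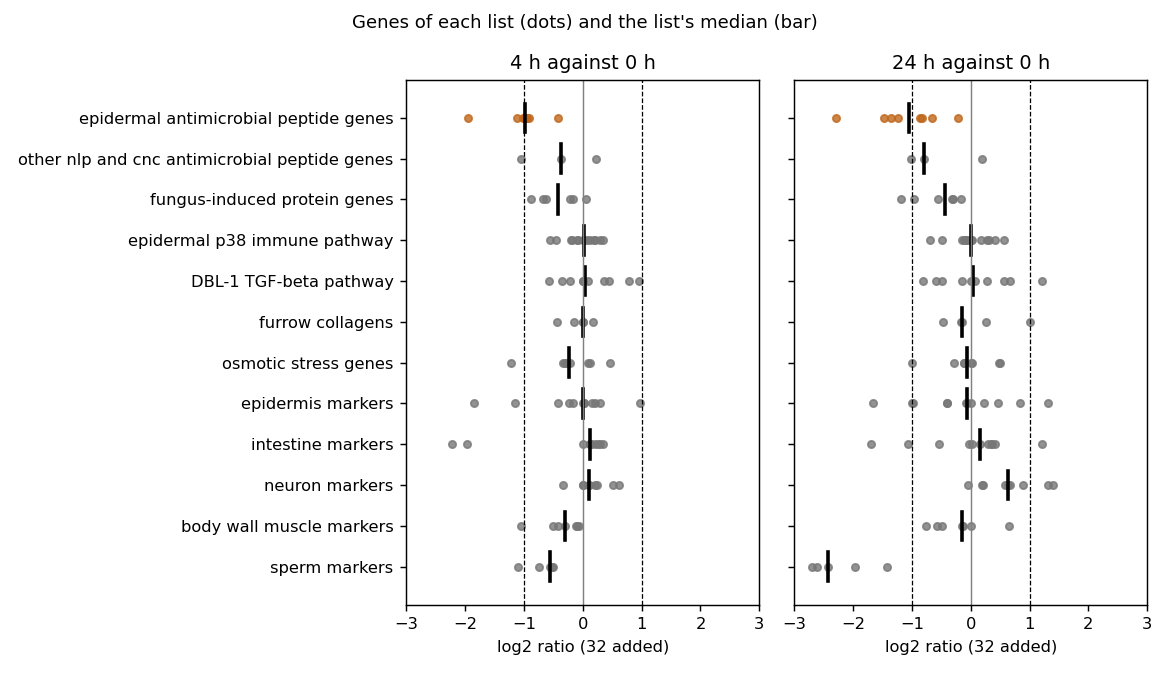
Log2 ratios (32 added) at 4 h and 24 h against 0 h of the genes that passed the filter in each list (dots), with the median of each list as a bar and 2-fold as dashed lines. The antimicrobial peptide genes have medians of -0.99 and -1.05 and the epidermis markers 0.01 and -0.07; positions are relative to the rest of each array, and with the hybridisation control scaling the medians of the fungus-induced list at 24 h and of the other nlp and cnc, furrow collagen, osmotic and muscle lists at both times turn above 0, as does that of the epidermis markers at 24 h, and with the poly-A controls all medians lie above 0 except those of the peptide genes at 4 h and the sperm markers at 24 h.

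The genes most like the group were those whose log2 ratios at 4 h and 24 h against 0 h lay nearest to the medians of the 8 genes, by Euclidean distance over 3 arrays. The 5 nearest were the glutathione S-transferase gene gst-39 (distance 0.06), cnc-7 (0.08), the lipid phosphatase gene plpp-1.2 (0.10), the hedgehog-related gene grl-27 (0.10) and the bZIP factor gene zip-3 (0.11). Of these, cnc-7 passed the filter only through its 0 h value, so its ratios had to be low and its nearness is no evidence of likeness. A distance of up to 0.25 was found for 54 of 8626 genes.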

How the data were processed

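Whole-worm RNA was measured on 3 Affymetrix arrays. The authors deposited normalized intensities per probe set, not on a log scale. RMA, MAS5 and Affymetrix Expression Console 1.1 are named, per the submitters' processing notes, with no role or order given. Labelling used 300.0 ng of total RNA and a 3' in vitro transcription kit, per the labels' protocols. Median intensities ran from 100.2 to 102.8.

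Log2 values were taken after adding 32. Of the 20766 probe sets annotated to 1 gene, those with a mean log2 value at or above the array-wide median (7.09) were kept, and the brightest stood for each of 8634 genes. Symbols of 20701 were updated by gene ID. With 1 array per group there is no test, and calls are differences of at least 2-fold. The number of arrays limits the precision. The members, lists, floor and alternatives were chosen with earlier results of these data known. Named genes are all members, up to 3 genes per list with the largest absolute ratio at 4 h and at 24 h against 0 h, and the 5 with the most similar ratios. The computation was tested on simulated data with less noise than the spread between probe sets and with changes larger than 2-fold. That test does not show how reliable calls near 2-fold are. Alternatives were other thresholds, normalizations (scaling on the poly-A controls was added after seeing the data), pseudocounts, filters and probe set choices. Python 3.11.15, pandas 2.3.3 and statsmodels 0.14.6 were used.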

Additional observations from a re-analysis of the deposited data

Results flagged for a closer look

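Named genes with ratios of opposite sign at 4 h and 24 h against 0 h were picked out, and the difference between the times was not tested. Among caenacin genes, cnc-3 had log2 ratios of -0.36 at 4 h and 0.20 at 24 h, and cnc-8 had 0.22 and -0.79. In the DBL-1 pathway, the receptor gene sma-6 had 0.78 at 4 h and -0.15 at 24 h, and among the osmotic stress genes osm-8 had -0.30 and 0.51. In the marker lists, the synaptic gene rab-3 had -0.34 at 4 h and 0.89 at 24 h, and the troponin gene tni-1 had -0.51 and 0.65. None of the antimicrobial peptide genes chosen by name was among them, relative to the rest of each array. With the hybridisation controls nlp-28 (0.02 at 4 h and -0.22 at 24 h) and cnc-4 (-0.54 and 0.43) had opposite signs. With the poly-A controls nlp-29 (-0.12 and 0.32), nlp-31 (-0.21 and 0.50) and cnc-4 (-0.17 and 0.95) did.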

How the results depend on the processing

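Under the 15 alternatives planned, the median log2 ratio of the peptide genes was below 0 at 4 h (-1.46 to -0.56) and at 24 h (-1.25 to -0.42) against 0 h. In 6 of the 15 it was the same value. Fold thresholds and rules for genes with several probe sets cannot move it. Centring the ratios on the median of all genes left it in place because that median was 0. These 6 say nothing of its stability. Scaling on the poly-A controls, chosen after seeing the data, gave -0.19 at 4 h, 0.090 at 24 h, which turned the direction, and 0.11 at 24 h against 4 h, with 1 gene lower at each time against 0 h and 1, cnc-4, higher at 24 h against 4 h. Scaling on the hybridisation controls gave -0.56 and -0.42, with 1 gene lower at each time. The count of lower genes was 7 at both times with a 1.5-fold threshold, beside 8.36% of all genes at 4 h and 17.3% at 24 h, and cnc-4 was then higher at 24 h against 4 h, beside 6.85%. It was 1 at both times with a 3-fold threshold, beside 0.996% and 3.69%. A pseudocount of 100 left 2 at 4 h, beside 2.40%, and a filter at the 75th percentile left 2 of 6 genes at both times, beside 2.47% and 6.97%. Leaving out probe sets that may cross-hybridise, nlp-26 and cnc-4 were left, with 1 lower at each time, beside 3.34% and 7.49%, a median of -1.46 at 4 h, and 0.20 at 24 h against 4 h. No paired analysis was possible because each group has 1 array. Differences under the spread between probe sets, and genes under the control for absent transcripts, cannot be resolved on these arrays.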
